A study of Mus musculus with 22 samples.

Results

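The genes described here are 36 microglial and complement genes, taken by name from the 23361 genes of the expression matrix, and all 36 were present. They comprised 8 homeostatic genes of microglial identity, 8 phagocyte receptor, adaptor and lysosome genes, 11 activation genes, 3 major histocompatibility complex (MHC) class II genes, 5 complement genes and the acute-phase gene Serpina3n. The hippocampal CA1 region of 22 female Swiss Webster x DBA/C57BL6 F1 wild-type mice was sequenced, 1 library per mouse. AL mice were fed ad libitum, which the labels call a normal diet, and CR mice received a calorie-restricted diet reduced in carbohydrates. Diets began at about the same young adult age in all mice, so older mice had also been on their diet for longer. Animals were 5 months (AL and CR, n = 5 each) or 15 months of age (AL and CR, n = 6 each), and all were perfused with buffer before CA1 was microdissected from brain slabs. Levels are FPKM as deposited by the authors, that is, sequenced fragments scaled to the depth of the library and divided by the length of the transcript.

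Microglia are the resident macrophages of the brain parenchyma and depend on signaling through the receptor encoded by Csf1r. In the undisturbed brain they express a set of surveying receptors, such as P2ry12, Cx3cr1 and Tmem119, whereas injury and degeneration are known to lower several of these and to raise activation genes such as Itgax, Clec7a, Cst7 and Lgals3. C1q, the recognition molecule of the classical complement pathway, is made in the brain mainly by microglia, and together with C4 and C3 it can tag synapses for removal.

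The labelled tissue held the defining microglial genes in every library, with Csf1r between 16.4 and 42.1 FPKM and P2ry12 between 10.4 and 32.6. Across the members, mean levels over the 22 libraries ran from 0.0786 FPKM for Itgax to 60.2 for Ctss, the lysosomal protease cathepsin S. Cathepsin S lay above 92.7% of all genes, Serpina3n above 90.6% and C1qa above 89.6%, whereas the complement component C3 lay above 30.2%. The 16 homeostatic and phagocyte genes were within a factor that ranged from 1.93 (Laptm5) to 4.14 (Ly86) between the lowest and highest library. The corresponding factor was 14.0 for Lgals3, 26.4 for Il1b and 22.1 for Cd74. Activation genes were mixed in this respect: Cd14 varied 2.50-fold, less than Csf1r (2.57-fold) or C1qb (3.15-fold), and Lgals3bp had a mean of 7.06 FPKM, above the homeostatic genes Siglech and Itgam (6.86 for the latter). Itgax, Clec7a, Cst7, Il1b, Ccl3, Ccl4 and C3 stayed below 1 FPKM in every mouse, and since fragment counts were not used here, the counting error behind such values is unknown.

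C1qb and C1qc are shown because they are neighbours that moved together in these libraries, and Ctss and P2ry12 because they were the most abundant phagocyte gene and, among homeostatic genes in the promoter table, the most abundant one. C1qb, C1qc and C1qa lie on chromosome 4, minus strand, within 18675 bases (GRCm38, GENCODE annotation, 136880129 to 136898803). Promoter windows from RefSeq (GRCm38.p6), each 250 bases before and 50 bases after an annotated start, were found for 26 of the 36 members. They were searched on both strands for GAGGAA, the core of sites bound by the myeloid factor PU.1, and GGAAGT, a core shared by ETS factors. These patterns can overlap, and capitals mark the matches, which appear as TTCCTC or ACTTCC where they lie on the other strand. GAGGAA was found in 13 of the 26 members (50%) and in 31.3% of all genes in the table, and GGAAGT in 13 of the 26 (50%) and in 26.5% of all genes. In C1qc the overlapping matches form ACTTCCTC, and the same letters occur in Ctss. A match describes letters in the window and no binding was measured.
C1qb, chr4:136886151-136886450, minus strand: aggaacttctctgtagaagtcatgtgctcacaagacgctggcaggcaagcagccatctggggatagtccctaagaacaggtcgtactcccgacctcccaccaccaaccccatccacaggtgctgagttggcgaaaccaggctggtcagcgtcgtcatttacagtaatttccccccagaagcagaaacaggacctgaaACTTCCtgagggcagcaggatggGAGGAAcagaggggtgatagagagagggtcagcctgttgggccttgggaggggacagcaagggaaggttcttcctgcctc
C1qc, chr4:136892865-136893164, minus strand: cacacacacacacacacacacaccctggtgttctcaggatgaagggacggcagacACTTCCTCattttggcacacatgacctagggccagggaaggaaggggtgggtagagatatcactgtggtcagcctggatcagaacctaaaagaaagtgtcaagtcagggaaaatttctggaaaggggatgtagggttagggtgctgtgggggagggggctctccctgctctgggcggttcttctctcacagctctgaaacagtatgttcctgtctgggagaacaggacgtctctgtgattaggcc
Ctss, chr3:95526536-95526835, plus strand: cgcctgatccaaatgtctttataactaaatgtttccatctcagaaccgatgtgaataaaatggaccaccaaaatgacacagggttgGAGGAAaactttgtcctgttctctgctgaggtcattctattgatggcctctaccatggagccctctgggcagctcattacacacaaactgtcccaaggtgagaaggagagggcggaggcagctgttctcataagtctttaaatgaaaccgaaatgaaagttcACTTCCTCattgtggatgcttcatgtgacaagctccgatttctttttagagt
P2ry12, chr3:59262936-59263235, minus strand: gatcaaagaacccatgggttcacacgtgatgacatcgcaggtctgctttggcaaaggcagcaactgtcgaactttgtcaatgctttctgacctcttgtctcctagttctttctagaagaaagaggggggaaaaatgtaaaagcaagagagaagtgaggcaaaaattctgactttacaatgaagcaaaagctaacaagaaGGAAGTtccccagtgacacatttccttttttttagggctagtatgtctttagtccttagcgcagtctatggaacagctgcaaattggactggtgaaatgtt
No promoter was in the table for Csf1r, Tmem119, Gpr34, Tyrobp, Ccl4, Cd14, Cd74, H2-Ab1, C1qa and C4b.

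Several libraries stood apart from the others. The summed level of 9 border macrophage markers, which include Mrc1, Cd163 and Lyve1, was 21.5 FPKM in AL 15 months replicate 1 and between 2.26 and 7.06 in the other 21 libraries. Choroid plexus epithelium markers (8 genes, Folr1 among them) summed to 299 FPKM in CR 5 months replicate 4 and to 67.6 in CR 5 months replicate 3, against 0.883 to 35.8 elsewhere. Markers of monocytes and granulocytes summed to between 0.245 and 20.2 FPKM and those of erythrocytes to between 1.35 and 46.2 FPKM, although the mice had been perfused. The homeostatic and phagocyte genes as a set were low in AL 15 months replicate 0, where 16 of 16 were below their group mean with a median difference of -0.65 on the log2 scale. The same 16 genes were all above the group mean in CR 15 months replicate 2, with a median difference of 0.47. The median FPKM of a library was between 2.51 and 3.10, with 18281 to 19175 genes above 0.

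**Figure D1:**
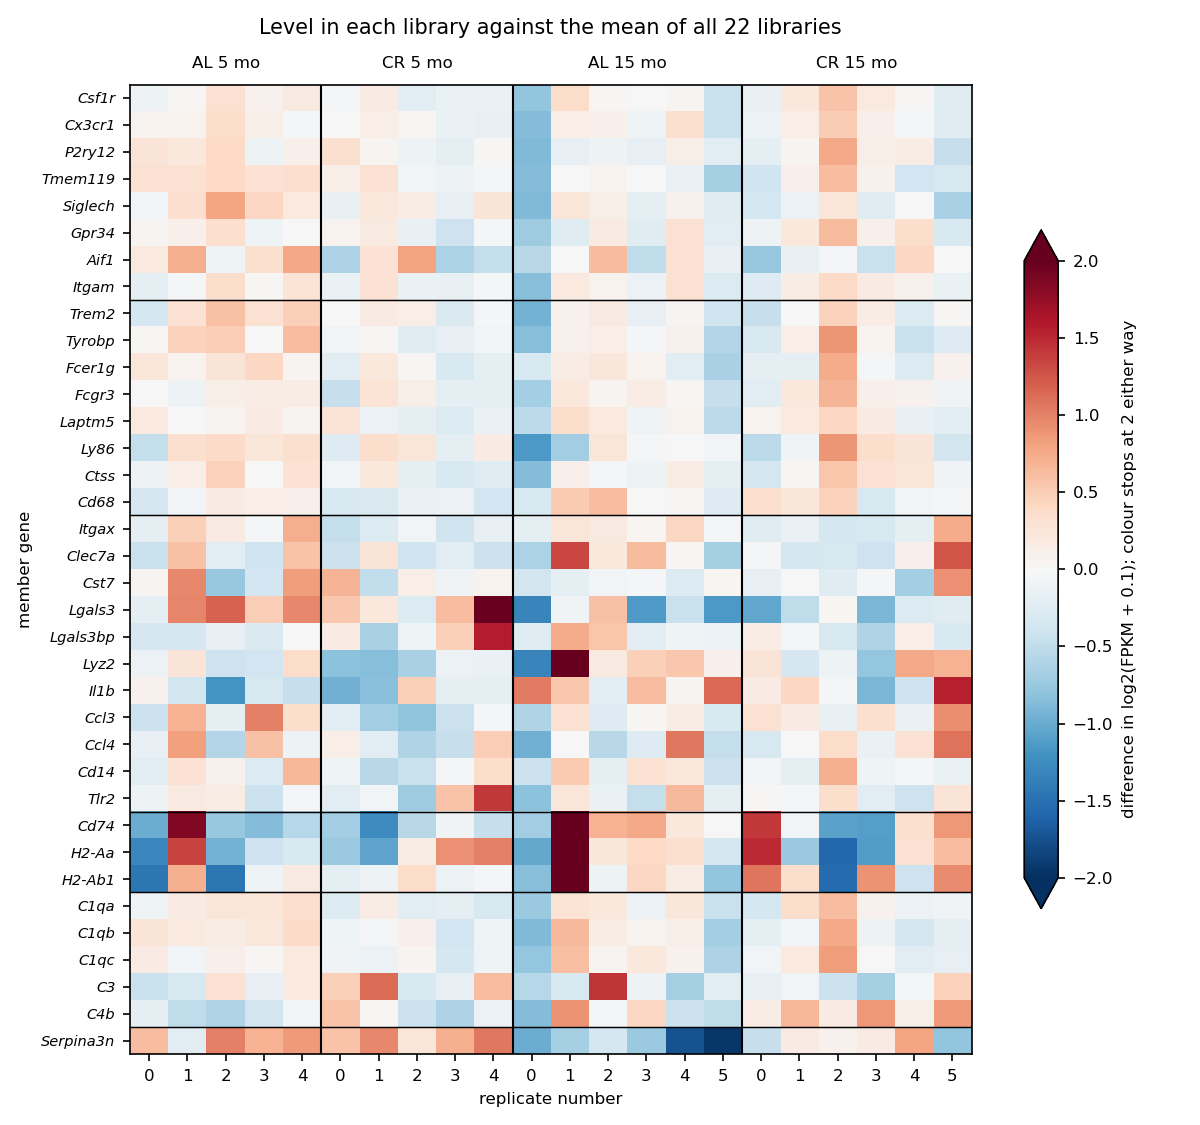
Difference of log2(FPKM + 0.1) in each library (columns, replicate numbers within the 4 groups) from the mean of all 22 libraries, for the 36 members (rows, in the order homeostatic, phagocyte, activation, MHC class II, complement and Serpina3n). AL 15 months replicate 0 is blue and CR 15 months replicate 2 is red across the first 16 genes, while the MHC class II genes and Lyz2 are reddest in AL 15 months replicate 1 and Lgals3 and Lgals3bp in CR 5 months replicate 4.

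With age in AL mice, 3 of the 34 members tested changed, and all 3 were lower at 15 months: Tmem119, a microglial surface protein, Lgals3, which encodes galectin-3, and Serpina3n, an inhibitor of serine proteases. Itgax and Clec7a, the integrin alpha X chain and the beta-glucan receptor dectin-1, had a mean below 0.1 FPKM and were not tested. Each comparison came from limma on log2(FPKM + 0.1) with all 4 groups in 1 fit, and "changed", "rose" and "fell" refer to its two-sided p under 0.05 after Benjamini-Hochberg adjustment over the 16978 genes tested. In the same contrast 20.6% of all genes passed that threshold and 9.97% passed it and were lower, and the members called were no more frequent than either share. At an unadjusted p under 0.05 there were 8 members, 7 lower and 1 higher, against 35.2% of all genes. Libraries of the 2 ages did not overlap for Tmem119 and Serpina3n, whereas this held for 14.0% of all genes. Of the 34 members 25 had a lower fitted level at 15 months and the median log2 fold change was -0.25, beside 50.4% of all genes and a median of -0.0018. In bulk tissue, fewer microglia and less RNA per microglial cell cannot be told apart.

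Among homeostatic genes, Tmem119 levels were 15.6, 15.6, 16.7, 15.5 and 16.0 FPKM in AL mice at 5 months. At 15 months they ranged from 6.84 to 13.2 FPKM with a median of 12. Every older AL mouse was thus below every younger one. On the log2 scale Tmem119 fell by 0.60 (SE 0.18, adjusted p = 0.0224 from limma), and an exact two-sided permutation test gave p = 0.00649. The call was close to the threshold, and without AL 5 months replicate 2, AL 15 months replicate 0 or AL 15 months replicate 5 the limma adjusted p was 0.0522, 0.0522 and 0.0516.

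The other 7 homeostatic genes did not pass the threshold, and all had lower fitted levels at 15 months in AL mice. P2ry12, the purinergic receptor that directs microglial processes toward nucleotides, had a median of 22.3 FPKM (17.8 to 25.3) at 5 months and 17.1 FPKM (10.4 to 20.8) at 15 months (log2 fold change -0.41, SE 0.18, limma adjusted p = 0.105). Siglech, a sialic acid-binding lectin, was 8.14 ± 1.82 FPKM (SD, n = 5) and 5.87 ± 1.47 FPKM (SD, n = 6), with a limma adjusted p of 0.0694. The groups overlapped for both genes, although every older AL mouse was below the median of the younger ones. For Csf1r, the receptor for the growth factors CSF1 and IL-34, the means were 30.5 ± 3.36 FPKM (SD, n = 5) and 26.7 ± 7.12 FPKM (SD, n = 6). Log2 fold changes were -0.26 for the fractalkine receptor Cx3cr1, -0.23 for the receptor Gpr34, -0.43 for Aif1 (the marker IBA1) and -0.20 for Itgam (the integrin CD11b). Over the 8 genes the median log2 fold change was -0.33.

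Of the 8 phagocyte genes, 7 had lower fitted levels at 15 months in AL mice and none passed the threshold. Tyrobp encodes the adaptor DAP12 through which Trem2, a lipid-sensing receptor, signals. Tyrobp was 26.3, 35.5, 36.3, 25.8 and 40.0 FPKM at 5 months and 14.3 to 28.5 FPKM with a median of 26.3 at 15 months. Trem2 was 15.3 ± 3.41 FPKM (SD, n = 5) and 11.1 ± 2.88 FPKM (SD, n = 6). Both overlapped between ages, with log2 fold changes of -0.51 (SE 0.21, limma adjusted p = 0.0881) and -0.46 (SE 0.20, limma adjusted p = 0.0962). Ctss was 66.4 ± 10.3 FPKM (SD, n = 5) and 54.3 ± 11.9 FPKM (SD, n = 6), a log2 fold change of -0.31. The remaining log2 fold changes were -0.33 for Fcer1g, the Fc receptor gamma chain, -0.18 for the Fc receptor Fcgr3, -0.18 for the lysosomal membrane protein gene Laptm5 and -0.44 for Ly86 (MD-1). Cd68, a lysosomal glycoprotein gene often used as a mark of phagocytic activity, was the exception at 0.10.

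Taking homeostatic and phagocyte genes together, 15 of 16 were lower at 15 months in AL mice, with a median log2 fold change of -0.32. These genes moved together within some libraries, so such counts, here and below, are not counts of independent results. Without AL 15 months replicate 0 the median was -0.22 and 15 of 16 were still lower. A further 40 microglia-enriched genes, among them Fcrls and Sfpi1 (which encodes PU.1), gave 26 lower, 14 higher and 0 called, with a median of -0.14; 3 of them had an unadjusted p under 0.05. AL 15 months replicate 0 was below its group mean for 36 of these 40 genes too.

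Markers of CA1 and of neighbouring regions moved with age in the same mice. The region score, which is the mean log2 level of neocortex and subiculum neuron markers minus that of CA1 neuron markers, was -1.75 ± 0.632 (SD, n = 5) for younger and 0.315 ± 0.505 (SD, n = 6) for older AL mice. In CR mice it was -2.16 ± 0.206 (SD, n = 5) and -0.504 ± 1.05 (SD, n = 6). With the score as a covariate, 0 genes and 0 members passed the threshold for age in AL mice, and the median of the 16 homeostatic and phagocyte genes was 0.02. The scores of younger (-2.25 to -0.814) and older AL mice (-0.406 to 1.08) did not overlap. Age and the score are therefore hardly separable in this fit, and the loss of calls cannot assign the changes to either. The markers behind the score did not all move 1 way: of 8 CA1 markers 5 were lower (4 called) and 3 higher with age in AL mice, and of 9 neocortex and subiculum markers 6 were higher (4 called) and 3 lower (1 called). A difference in the dissected tissue and a change in the expression of these markers cannot be told apart here. Of 8 oligodendrocyte markers 2 fell and all 8 were lower (median log2 fold change -0.85), and of 9 astrocyte markers Aldh1l1 rose while Gfap and S100b fell. The part of these markers in the members' changes was tested only as single covariates: Tmem119 was called with the astrocyte score in the model (limma adjusted p = 0.0187) and not with the oligodendrocyte score (limma adjusted p = 0.0522).

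**Figure D2:**
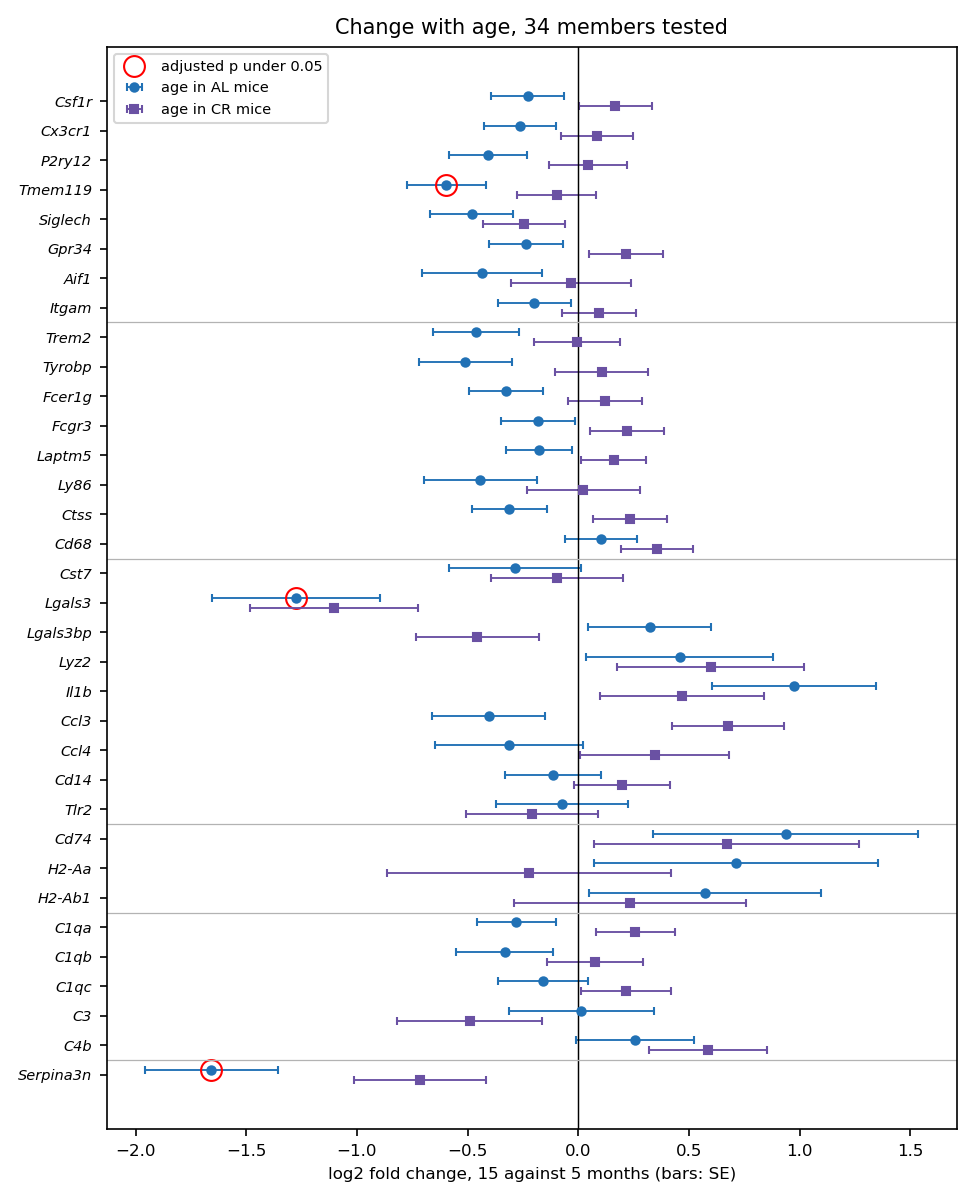
Log2 fold change (x axis, 15 against 5 months, bars show the SE) of the 34 members tested in AL mice (circles) and CR mice (squares), with red rings for an adjusted p under 0.05. In AL mice 15 of the first 16 genes lie left of 0, in CR mice 12 of them lie right of 0, and only Tmem119, Lgals3 and Serpina3n in AL mice carry a ring.

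Activation genes did not move in 1 direction with age in AL mice: 6 of the 9 tested had lower and 3 higher fitted levels. Lgals3 was 0.571, 1.40, 1.63, 0.981 and 1.39 FPKM at 5 months and 0.206 to 1.04 FPKM with a median of 0.355 at 15 months. Every older mouse was below the younger median, but the ranges overlapped. It fell by 1.27 on the log2 scale (SE 0.38, adjusted p = 0.0224 from limma; exact permutation p = 0.0195). Without AL 5 months replicates 1, 2 or 4 or AL 15 months replicate 0, left out in turn, the limma adjusted p lay between 0.0515 and 0.0643. Lgals3 also moved with choroid plexus RNA: its highest level, 2.89 FPKM, was in CR 5 months replicate 4. The choroid plexus markers themselves were lower at 15 months (8 of 8, 4 called), and with their score as a covariate the log2 fold change of Lgals3 was -0.55 (limma adjusted p = 0.264).

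Il1b, the gene for the cytokine interleukin-1 beta, was the member with the highest fold change with age in AL mice. It was 0.213, 0.128, 0.0292, 0.138 and 0.114 FPKM at 5 months, and at 15 months it ranged from 0.154 to 0.546 FPKM with a median of 0.342. Every older mouse was above the younger median, and the difference missed the threshold (log2 fold change 0.98, SE 0.37, limma adjusted p = 0.0657; exact permutation p = 0.0130). The 2 AL mice with the highest Il1b levels at 15 months were replicates 5 and 0 (0.546 and 0.506 FPKM). Of the 16 homeostatic and phagocyte genes, 14 were below the group mean in replicate 5 and 16 in replicate 0. The median differences were -0.25 and -0.65 on the log2 scale. These 2 mice were singled out after the values were seen, and a link with Il1b was not tested. Other values were -0.40 for Ccl3 and -0.31 for Ccl4, chemokines that microglia release on stimulation, -0.11 for the lipopolysaccharide co-receptor Cd14, -0.07 for the receptor Tlr2, -0.29 for the cystatin Cst7 and 0.32 for Lgals3bp, a galectin-binding secreted protein.

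Lyz2, a lysozyme gene of myeloid cells, and the MHC class II genes were highest in 1 library of older AL mice. In AL mice at 15 months Lyz2 was 20.0 FPKM in replicate 1 and 1.45 to 5.55 in the others. Cd74, the invariant chain of MHC class II, was 17.9 FPKM in that library and 1.25 to 3.59 in the others, and H2-Aa was 8.04 FPKM against 0.497 to 1.5. This is the library with the highest border macrophage markers, all 9 of which had higher fitted levels with age in AL mice (median 0.28, 0 called). It lay above the group mean for all 9 markers, by a median of 1.82 on the log2 scale. The change of these markers without it is not given. Log2 fold changes with age in AL mice were 0.46 for Lyz2, 0.94 for Cd74, 0.71 for H2-Aa and 0.57 for H2-Ab1, the class II alpha and beta chains, and none passed the threshold. Without replicate 1 they were 0.06, 0.46, 0.24 and 0.18. Among younger AL mice Cd74 was 7.79 FPKM in replicate 1 and 0.999 to 1.37 in the other 4, and without that mouse its log2 fold change was 1.47 (limma adjusted p = 0.0789). With all mice included, all 6 older AL mice were above the younger median for Cd74 (exact permutation p = 0.271). Of 9 other MHC class II genes 0 were called and 4 were higher. The mice have a mixed background, and reads from polymorphic class II genes may align unequally, which was not tested.

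**Figure D3:**
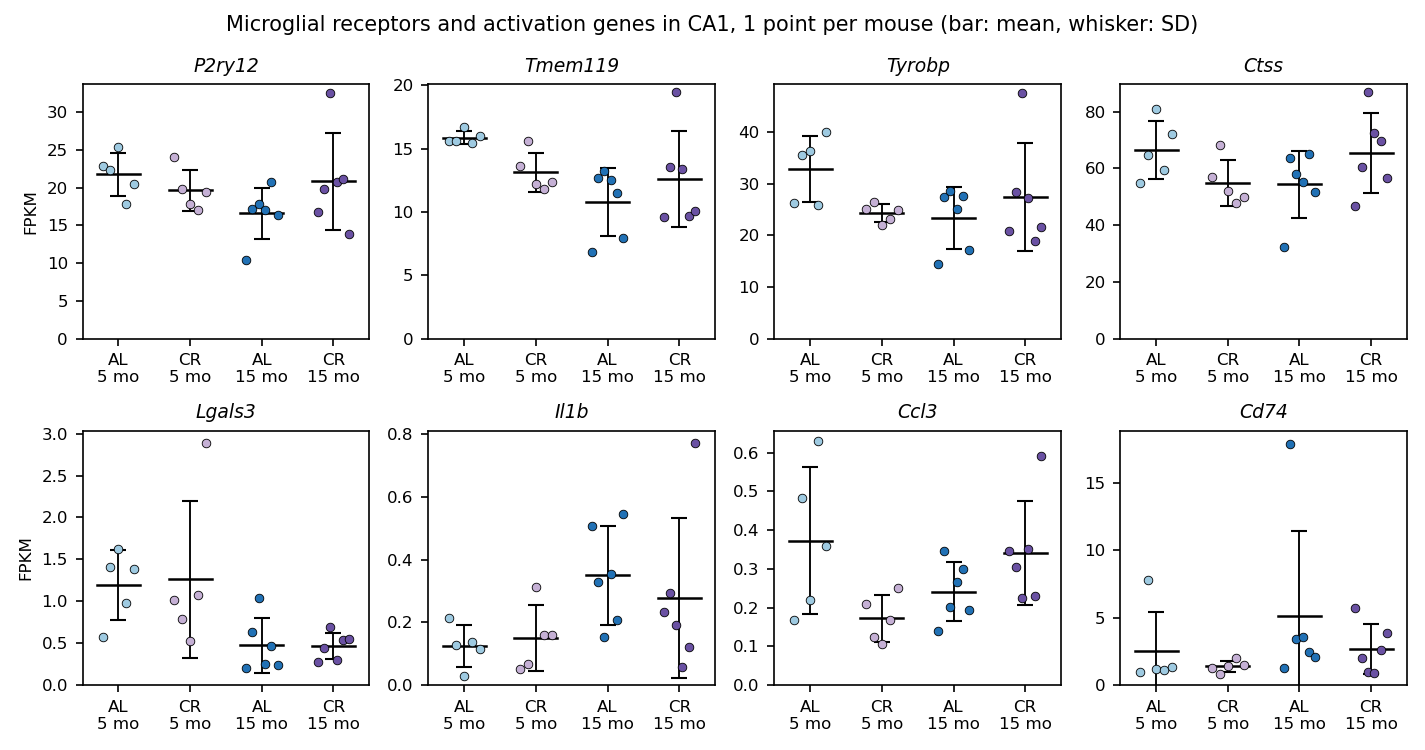
FPKM (y axis, from 0) of 8 members in each mouse by group (x axis), with points for mice, a bar for the mean and whiskers for the SD. Tmem119 in older AL mice lies wholly below younger AL mice, Tyrobp and Ctss overlap in every comparison, and Cd74 reaches 17.9 in 1 older AL mouse.

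No complement member passed the threshold for age in AL mice. The A, B and C chains of C1q (C1qa, C1qb and C1qc) were at 47.6 ± 4.96, 32.5 ± 2.16 and 28.5 ± 2.02 FPKM in the younger mice (SD, n = 5). In the older mice they were 40.4 ± 10.7, 27.5 ± 10.3 and 26.8 ± 9.27 FPKM (SD, n = 6). The means were lower and the spread wider in older mice, in which C1qb was 14.9 FPKM in replicate 0, 17.1 in replicate 5, 29.0 to 30.6 in replicates 2, 3 and 4 and 43.1 in replicate 1. Log2 fold changes were -0.28, -0.33 and -0.16 for the A, B and C chains, with limma adjusted p-values of 0.274, 0.287 and 0.605. Within single libraries the ratio of C1qc to C1qb ran from 0.823 to 1.15, that of C1qc to C1qa from 0.526 to 0.809 and that of C1qb to C1qa from 0.496 to 0.856, while the level of C1qb varied 3.15-fold. C3, the central component cleaved after C4, was scarce at 0.132 FPKM (median, 0.0911 to 0.223) and 0.118 FPKM (0.0641 to 0.607). C4b was 4.20 ± 0.666 FPKM (SD, n = 5) and 5.46 ± 2.66 FPKM (SD, n = 6), a log2 fold change of 0.26 that was 0.06 without replicate 1. C4b has the close paralog C4a and Serpina3n belongs to a family of near copies, so reads shared with paralogs depend on the multi-read weighting.

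Among 25 other complement genes tested, 3 rose and 1 fell with age in AL mice, which is a smaller share than the 20.6% of all genes called in that contrast. C7, a component of the membrane attack complex, was 0.133 ± 0.0528 FPKM (SD, n = 5) and 0.750 ± 0.306 FPKM (SD, n = 6), with a limma adjusted p of 0.00884. C3ar1, the receptor for C3a, was 0.259 ± 0.0982 FPKM (SD, n = 5) and 0.488 ± 0.248 FPKM (SD, n = 6), with a limma adjusted p of 0.0335. Csmd1, a large membrane protein that limits complement, rose by 0.41 on the log2 scale (limma adjusted p = 0.00836), whereas Cd55, decay-accelerating factor, fell by 0.93 (limma adjusted p = 0.00490). In CR mice C3ar1 rose as well, by 0.98 (limma adjusted p = 0.0126), and Cd55 fell by 0.82 (limma adjusted p = 0.0350). Of these genes, C3ar1 is the one that microglia are known to express.

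Serpina3n carried the largest difference of any member. Levels in AL mice at 5 months were 62.4, 34.7, 82.1, 66.1 and 73.6 FPKM, and at 15 months they ranged from 10.5 to 32.2 FPKM with a median of 22.4. The highest older mouse was below the lowest younger mouse. On the log2 scale Serpina3n fell by 1.66 (SE 0.30, adjusted p = 0.00102 from limma), and the exact permutation p of 0.00216 is the smallest that 5 mice against 6 allow. The call held without each of the 22 libraries in turn (limma adjusted p at most 0.00457) and was lost with the region score as a covariate (log2 fold change -1.01, limma adjusted p = 0.308). That covariate is hardly separable from age in AL mice. Serpina3n is known mainly from astrocytes and oligodendrocytes. With the astrocyte score as a covariate its log2 fold change was -1.45 (limma adjusted p = 0.00271) and with the oligodendrocyte score -1.79 (limma adjusted p = 0.00246).

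In CR mice 0 of 34 members changed with age, beside 3.36% of all genes. Older CR mice had also been restricted for longer, and age and time on the diet cannot be told apart in them. At an unadjusted p under 0.05 there were 5 members, 3 higher and 2 lower, beside 18.0% of all genes. No member had groups without overlap, which 3.26% of all genes had. The fitted level was higher at 15 months in 23 of 34 members and in 12 of the 16 homeostatic and phagocyte genes, with medians of 0.11 and 0.10, while 49.7% of all genes were lower. Without CR 15 months replicate 2 the median of these 16 genes was -0.01. Homeostatic receptors lay close to 0, with log2 fold changes of 0.04 for P2ry12, 0.09 for Cx3cr1 and -0.10 for Tmem119. P2ry12 was 19.6 ± 2.71 FPKM (SD, n = 5) and 20.8 ± 6.40 FPKM (SD, n = 6).

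Serpina3n and Lgals3 were again the members with the most negative values in CR mice, without passing the threshold. Serpina3n was 60.4, 79.2, 48.2, 66.8 and 84.9 FPKM at 5 months and 23.5 to 70.7 FPKM with a median of 44.4 at 15 months (log2 fold change -0.71, SE 0.30, limma adjusted p = 0.204). Lgals3 was 1.26 ± 0.938 FPKM (SD, n = 5) and 0.464 ± 0.159 FPKM (SD, n = 6), a log2 fold change of -1.10 (limma adjusted p = 0.119). Leaving out CR 5 months replicate 4 gave -0.77 for Lgals3. Choroid plexus markers were lower at 15 months in CR mice as well (8 of 8, 7 called, median log2 fold change -3.26). With their score as a covariate the direction of Lgals3 turned, at 0.30. On the other side were Ccl3 at 0.68 (limma adjusted p = 0.153), C4b at 0.59 (limma adjusted p = 0.243) and Cd68 at 0.36 (limma adjusted p = 0.249). C4b was 5.12 ± 1.77 FPKM (SD, n = 5) and 7.62 ± 1.94 FPKM (SD, n = 6), and all 6 older CR mice were above the median of the younger ones. C1qa, C1qb and C1qc were at 0.26, 0.08 and 0.21.

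At 15 months 0 of 34 members differed between diets, beside 0.742% of all genes. At an unadjusted p under 0.05 there were 2, C4b and Serpina3n, both higher under CR, beside 17.1% of all genes, and 0.984% of all genes but no member had groups without overlap. This comparison uses the same 6 AL mice as the age comparison in AL mice, so the values of the comparisons are not independent. Serpina3n was 20.4, 25.8, 32.2, 24.4, 12.1 and 10.5 FPKM in AL mice and 29.7, 45.7, 43.2, 45.8, 70.7 and 23.5 FPKM in CR mice. All 6 CR mice were above the AL median, while the lowest 2 CR mice lay within the AL range. CR mice were higher by a log2 fold change of 1.06 (SE 0.29, adjusted p = 0.0783 from limma; exact permutation p = 0.0152). It passed the threshold without CR 15 months replicate 0 (limma adjusted p = 0.0375) or replicate 5 (limma adjusted p = 0.0307) and missed it without any other library, up to a limma adjusted p of 0.190. The limma adjusted p was 0.267 with only the compared groups in the fit, 0.342 with the region score and 0.225 with the astrocyte score as a covariate.

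Blood markers moved with diet at 15 months as well. Erythrocyte markers summed to a median of 2.80 FPKM (1.35 to 27.6) in AL mice and 28.2 FPKM (2.52 to 46.2) in CR mice, and 5 of 6 tested were higher under CR (median log2 fold change 1.64, 0 called). Monocyte and granulocyte markers summed to a median of 0.882 FPKM (0.638 to 2.32) and 2.45 FPKM (0.509 to 20.2), and 4 of 5 tested were higher (median 1.07, 3 at an unadjusted p under 0.05, 0 called). The sum of 20.2 FPKM was in CR replicate 4, the mouse with the highest Serpina3n level of its group. The next highest sum, 6.77 FPKM, was in CR replicate 5, which had the lowest Serpina3n level (23.5 FPKM). The lowest sum, 0.509 FPKM, was in CR replicate 3, where Serpina3n was 45.8 FPKM. The groups overlapped for the erythrocyte sum and for the monocyte and granulocyte sum, and the part of these markers in the members' values was not tested.

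C4b was 5.46 ± 2.66 FPKM in AL mice and 7.62 ± 1.94 FPKM in CR mice at 15 months (SD, n = 6 each), a log2 fold change of 0.56 (SE 0.25, limma adjusted p = 0.261). For homeostatic and phagocyte genes 14 of 16 were higher under CR, with a median log2 fold change of 0.20, and 50.3% of all genes were lower. The largest of these were Ly86 at 0.37, P2ry12 at 0.30 and Gpr34 at 0.30. The median fell to 0.09 without AL 15 months replicate 0 and to 0.10 without CR 15 months replicate 2. C1qa, C1qb and C1qc were at 0.19, 0.07 and 0.17, and without CR 15 months replicate 2 they were at 0.08, -0.08 and 0.02. Cd74 and H2-Aa were at -0.61 and -0.56, and without AL 15 months replicate 1 at -0.13 and -0.09. Over the other lists of complement, microglial, disease-associated and MHC class II genes, 0 genes were called for diet at 15 months.

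**Figure D4:**
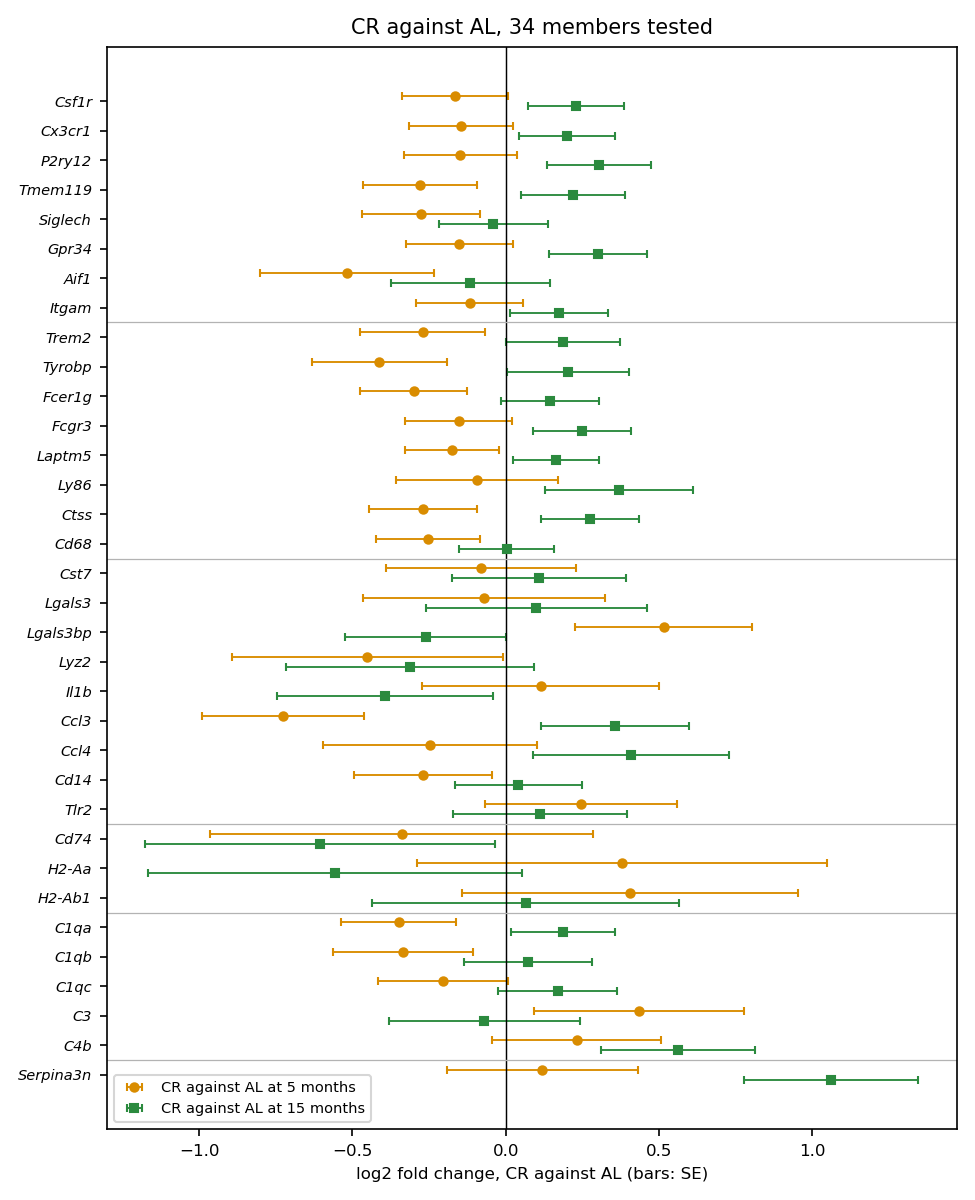
Log2 fold change (x axis, CR against AL, bars show the SE) of the 34 members tested at 5 months (circles) and 15 months (squares). No member passed an adjusted p of 0.05; the first 16 genes lie left of 0 at 5 months and 14 of them lie right of 0 at 15 months.

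At 5 months 0 of 34 members and 0% of all genes differed between diets, with limma adjusted p-values of 1. At an unadjusted p under 0.05 there was 1 member, Ccl3, beside 4.65% of all genes. All 16 homeostatic and phagocyte genes, which are not independent of each other, had lower fitted levels under CR. Their median log2 fold change was -0.21, beside 50.2% of all genes lower and a median of 0. Values ranged from -0.09 for Ly86 to -0.52 for Aif1. Of the 40 further microglia-enriched genes 34 were lower, with a median of -0.14 and 0 called. Oligodendrocyte markers were also lower under CR (8 of 8, median -0.52, 0 called), as were endothelial markers (7 of 8, median -0.30, 4 at an unadjusted p under 0.05, 0 called) and astrocyte markers (7 of 9, median -0.15, 0 called), and choroid plexus markers were higher (8 of 8, median 1.68, 0 called). With the oligodendrocyte score as a covariate 16 of 16 genes were lower with a median of -0.26, and with the astrocyte score 12 of 16 were lower with a median of -0.08.

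C1qb was the member whose libraries did not overlap between diets at 5 months, as was the case for 1.36% of all genes. It was 32.8, 31.4, 30.5, 31.9 and 36.1 FPKM in AL mice and 25.9, 26.9, 29.5, 21.2 and 25.9 FPKM in CR mice. Every CR mouse was below every AL mouse, and the exact permutation p of 0.00794 is the smallest that 5 mice against 5 allow. In the fit across all genes the log2 fold change was -0.33 (SE 0.23, limma unadjusted p = 0.157). That fit uses 1 estimate of the spread for all groups, and the SD of C1qb was 2.16 and 3.01 FPKM at 5 months and 10.3 and 9.34 FPKM at 15 months, in AL and CR mice respectively. C1qa and C1qc were at -0.35 and -0.20, with exact permutation p-values of 0.0159 and 0.0317. Exact permutation p-values under 0.05 were also found for Tmem119 and Tyrobp (0.0238 each), Fcer1g and Itgax (0.0317 each) and Cd68 (0.0476), all lower under CR. The exact p-values are not adjusted, and 36 members were compared in each contrast. The exact test was run on members only, so the share of all genes under 0.05 by that test is unknown. A count of such members therefore has no background to be read against. Itgax had a mean below 0.1 FPKM and was not in the limma fit. Ccl3 was 0.372 ± 0.190 FPKM in AL mice and 0.172 ± 0.0602 FPKM in CR mice (SD, n = 5 each), a log2 fold change of -0.73 (SE 0.26, limma unadjusted p = 0.0124; exact permutation p = 0.0556). Lgals3bp, at 0.52, was the member with the highest value, and without CR 5 months replicate 4, where it was 19.8 FPKM, it was at 0.20.

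**Figure D5:**
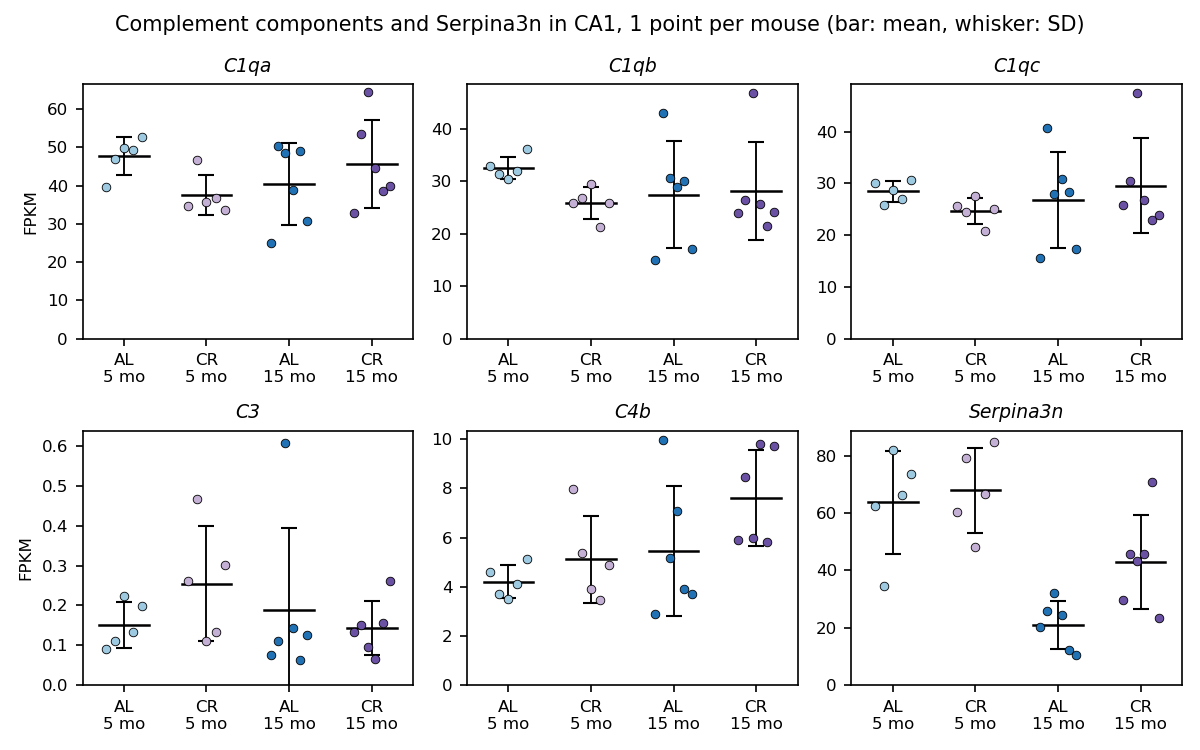
FPKM (y axis, from 0) of the 5 complement members and Serpina3n in each mouse by group (x axis), with points for mice, a bar for the mean and whiskers for the SD. C1qb is lower in every CR than in every AL mouse at 5 months, the C1q chains spread widely at 15 months, and older AL mice lie below all younger AL mice for Serpina3n.

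The difference of the age effects between diets was tested as the age by diet interaction, in which 0 of 34 members and 0% of all genes passed the threshold. At an unadjusted p under 0.05 there were 4 members (Ccl3, Ctss, C1qa and Serpina3n), beside 7.66% of all genes. The interaction was positive for 27 of 34 members and for 16 of 16 homeostatic and phagocyte genes, with a median of 0.42 for the latter, while 49.3% of all genes were negative. It was 1.08 (SE 0.36) for Ccl3, 0.94 (SE 0.42) for Serpina3n, 0.55 (SE 0.24) for Ctss and 0.54 (SE 0.25) for C1qa, with limma adjusted p-values from 0.608 to 0.645. Without AL 15 months replicate 0 the median of the 16 genes was 0.30, and with the astrocyte score as a covariate it was 0.08. The change with age, which in CR mice includes the longer time on the diet, was therefore not shown to differ between AL and CR mice for any member.

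Genes related to disease-associated microglia that are not members gave 3 that fell with age in AL mice among 20 tested, with 12 of 20 lower, beside 9.97% of all genes that were called and lower, 20.6% called in either direction and 50.4% lower. They were Lpl, lipoprotein lipase, from 33.9 ± 10.8 FPKM (SD, n = 5) to 11.9 ± 2.98 FPKM (SD, n = 6), the tetraspanin Cd9, from 47.8 ± 6.73 FPKM (SD, n = 5) to 27.6 ± 2.92 FPKM (SD, n = 6), and the ferritin heavy chain Fth1. All 3 are expressed by other brain cells too. Among 10 ligands and partners of microglial receptors, Cd200, a neuronal ligand that restrains microglia, rose from 35.3 ± 5.55 FPKM (SD, n = 5) to 62.2 ± 5.76 FPKM (SD, n = 6), and Sirpa rose by 0.25 on the log2 scale (limma adjusted p = 0.0379). Tgfb2, a growth factor of the family that maintains microglial identity, fell from 16.6 ± 4.89 FPKM (SD, n = 5) to 4.77 ± 2.04 FPKM (SD, n = 6). Limma adjusted p-values were 0.00173 for Lpl, 0.00369 for Cd9, 0.0238 for Fth1, 0.00632 for Cd200 and 0.00349 for Tgfb2. As given above, 0 genes passed the threshold in this contrast once the region score, which did not overlap between the AL ages, was in the model. In CR mice 1 of the 20 disease-associated genes fell with age (limma adjusted p = 0.0363) and 13 of 20 were lower. Of all genes, 3.36% were called for age in CR mice and 49.7% were lower.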

How the data were processed

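RNA from frozen CA1 microdissections was sequenced as 50-base paired-end reads. TopHat was used by the authors for alignment to mm10 and Picard to drop likely duplicates. From the remaining reads the authors computed the deposited FPKM values with Cufflinks, weighting multi-mapped reads and correcting fragment bias. The matrix holds 1 column per mouse for 23361 genes, and the columns were matched to groups through the labels. Versions and the gene annotation are not given in the sources used here. Read counts were not recoverable (at most 0.739% of low genes lay on a common ratio in 21 pairs of libraries), so the depth of each single library is unknown, and errors are those among mice.

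The 16978 genes (34 members) whose mean FPKM reached 0.1 were tested as log2(FPKM + 0.1) in R 4.3.3 with the lmFit, contrasts.fit and eBayes (trend on) functions of limma 3.58.1. All 4 groups entered 1 fit with 5 contrasts and Benjamini-Hochberg adjusted p-values over all genes tested. The offset of 0.1 lowers fold changes of scarce genes. For single members, an exact permutation test (two-sided, on group means) was added. Tables and figures were made in Python 3.11.15 with numpy 2.4.6, pandas 2.3.3 and matplotlib 3.10.9. A list score is the mean log2(FPKM + 0.1) of its genes. Coordinates are from GENCODE (GRCm38).

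Members, gene lists and tests were chosen with earlier results of these data known. Values are given in full for members called in a contrast, then for members with the smallest unadjusted p until 12 were reached. They are also given for the 1 or 2 most abundant members of each class. From the other lists of complement, microglial, disease-associated, MHC class II and ligand genes, up to 6 called genes per list are named for age in AL mice. For age in CR mice this was done for complement genes only. Markers of other cell types and regions are given mostly by counts, so a marker that is not named may have been called. Single values of other members, of promoters and of libraries were chosen after they were seen. On simulated data with 200 altered genes (log2 change 1.5) among 16978, the fit recovered 179 and 175 for age in AL and CR mice and 176 and 182 for diet at 15 and 5 months, with 9, 8, 10 and 8 other genes called. The simulated noise was independent between genes, unlike that of the members. The change of 1.5 exceeded every member difference but that of Serpina3n with age in AL mice. The recovery therefore does not describe the smaller differences of the other members. Alternatives were other offsets and filters, other scalings, eBayes without trend, only the compared groups, the replicate number as a block, marker scores as covariates and the omission of each library. Omission of 2 libraries by marker content and the choroid plexus, border macrophage, oligodendrocyte and astrocyte covariates were added after the data were seen.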

Additional observations from a re-analysis of the deposited data

Results flagged for a closer look

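Within groups, the highest or lowest mouse was far from the others by Dixon's criterion in 14 of 144 group values, where chance gives about 1 in 20, or 7.2. In AL mice at 15 months, replicate 0 was low for P2ry12 (10.4 FPKM, others 16.4 to 20.8) and Ctss (32.3 FPKM, others 51.8 to 65.1). In CR mice at 15 months, replicate 2 was high for Fcer1g (22.5 FPKM, others 11.1 to 14.1), Cd14 (3.89 FPKM, others 2.04 to 2.30) and C1qb (46.9 FPKM, others 21.5 to 26.5). Replicate 5 of the same group was high for the untested genes Itgax (0.190 FPKM, others 0.0360 to 0.0585) and Clec7a (0.313 FPKM, others 0.0307 to 0.0855).

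At 5 months, CR replicate 1 was high for Itgam (8.25 FPKM, others 6.09 to 6.61) and C1qa (46.6 FPKM, others 33.5 to 36.8), CR replicate 0 for Laptm5 (18.0 FPKM, others 12.3 to 13.7) and CR replicate 2 for H2-Ab1 (1.19 FPKM, others 0.784 to 0.876). AL replicate 0 was low for Ly86 (9.35 FPKM, others 15.5 to 17.1), and AL replicate 1 was high for Cd74 (7.79 FPKM, others 0.999 to 1.37). C3 was high in AL 15 months replicate 2 (0.607 FPKM, others 0.0641 to 0.143).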

How the results depend on the processing

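For age in AL mice, 3502 genes and 3 members were called. The region score as a covariate gave 0 and 0, the homeostatic mean 1508 genes and 1 member, the choroid plexus score 1999 genes, and leaving out 1 library 1 to 5 members. The homeostatic mean is made of 8 members, Tmem119 among them, so its fit removes part of the members' own change by construction. With the region score, which did not overlap between the AL ages, the log2 fold changes of Trem2 (0.066) and Tyrobp (0.039) turned positive. For age in CR mice (570 genes, 0 members), the gene count was 304 with a mean FPKM of at least 1, 324 with only the compared groups, 54 with the region score, 326 without the 2 libraries rich in border macrophage or choroid plexus RNA, 0 with the choroid plexus score, 961 with the astrocyte score and 331 to 775 without 1 library. Lgals3 turned to 0.30 in CR mice with the choroid plexus score. For diet at 15 months (126 genes, 0 members), it was 77 with quantile normalization, 0 with only the compared groups, 6 with the region score, 17 with the homeostatic mean, 34 without those 2 libraries, 54 with the border macrophage score, 6 with the astrocyte score and 15 to 732 (0 to 1 members) without 1 library. For diet at 5 months, 1 gene was called without the trend and 0 to 1 without 1 library, and for the interaction 0 to 1 without 1 library, which could not be fitted with only the compared groups. The causes were not tested. Tmem119 and Lgals3 lost their calls under some omissions and covariates, and Serpina3n kept its call for age in AL mice in every alternative but the region score.

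With the replicate number as a block, 5 members were called for age in AL mice and 323 genes and 1 member (Serpina3n) for diet at 15 months. The numbers do not pair the mice: in 31 same-numbered pairs of libraries, correlations of deviations from the group mean ran from -0.139 to 0.163, and 2 were above 0.1.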
